A study of Rattus with 18 samples.

Results

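Among the numbered panel probes counted in infarcted rat hearts, 306 had a mean raw count of 30 or more and 68 had less. Relative to the panel total, 125 of the 306 had a lower mean log2 value at day 3 than at day 1. Of these, 24 were lower by at least 1.5-fold. These 24 members were chosen by measured values: each count was divided by the heart's panel total and multiplied by 1e+06 (the scaled count, CPM), increased by 1 and put on the log2 scale. A probe was taken where the mean of the 9 day 3 hearts lay at least 1.5-fold below the mean of the 9 day 1 hearts on that scale. The differences between the days in these same hearts are therefore a description of how the members were chosen, and none of them was tested. Members are numbered here by their mean CPM, so that member 1 had the highest count and member 24 the lowest. The deposited table does not pair its rows with gene names, so no member is named and no gene group can be given. Levels of different members are counts of different probes and are not compared as amounts of RNA.

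The samples were left ventricular free wall from Sprague-Dawley rats after a 35 min myocardial infarction, and RNA was measured by NanoString hybridization, in which barcoded probes bound to RNA are counted directly. Each day had 4 hearts of the control group and 5 of the iECM group, where iECM is an infusible extracellular matrix. The treatment text of every sample mentions an iECM infusion, whereas 8 samples carry the agent label control. The agent label was followed, and what the control hearts were given is not stated in the labels. The labels state no age, and do not say that each sample came from a separate animal. Each sample is called a heart here, and a p-value reflects only how much these samples vary, which may be technical.

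As background, an infarct passes through an early inflammatory phase, in which dying heart muscle releases alarm signals and neutrophils and monocytes enter the tissue. Many cytokine and chemokine transcripts of that phase are short-lived. Macrophages that clear debris and fibroblasts that lay down matrix then become more prominent. Which of these cells or programmes the 24 members belong to cannot be read from unnamed rows. In bulk tissue, fewer cells of a type and less RNA per cell cannot be told apart, and the defining markers of cardiac tissue could not be checked.

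The summed count over the panel probes ranged from 786620 to 1347082 in day 1 hearts and from 1026410 to 1615554 in day 3 hearts. The 6 rows read from their values as positive controls, which in such panels count added RNA, went the other way. Their sum was 75474 ± 6469 counts over the 9 day 1 hearts (SD) and 55074 ± 11802 over the 9 day 3 hearts. A share of the panel total and a share relative to added RNA therefore give different pictures, and both are given for the members below. The 8 rows read as negative controls had means of 11.9 to 15.8 counts per heart. Their mean plus 2 SD, used here as the limit of background, lay between 22.1 and 34.1 counts.

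The 24 members together held 7.55 ± 1.19% (SD, n = 9) of the panel counts at day 1, and 3.32 ± 0.20% (SD, n = 9) at day 3. In day 1 control hearts the summed share was 6.00, 8.80, 6.30 and 6.83%. In day 1 iECM hearts it was 7.77, 7.13, 7.90, 7.43 and 9.77%. The day 3 control hearts held 3.37, 3.23, 3.14 and 3.22%, and the day 3 iECM hearts 3.51, 3.46, 2.99, 3.30 and 3.66%. The lowest day 1 heart lay above the highest day 3 heart, which the rule itself favours. Control day 1 replicate 2 and iECM day 1 replicate 5 had the highest shares. Within each day the control and iECM hearts overlapped.

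**Figure D1:**
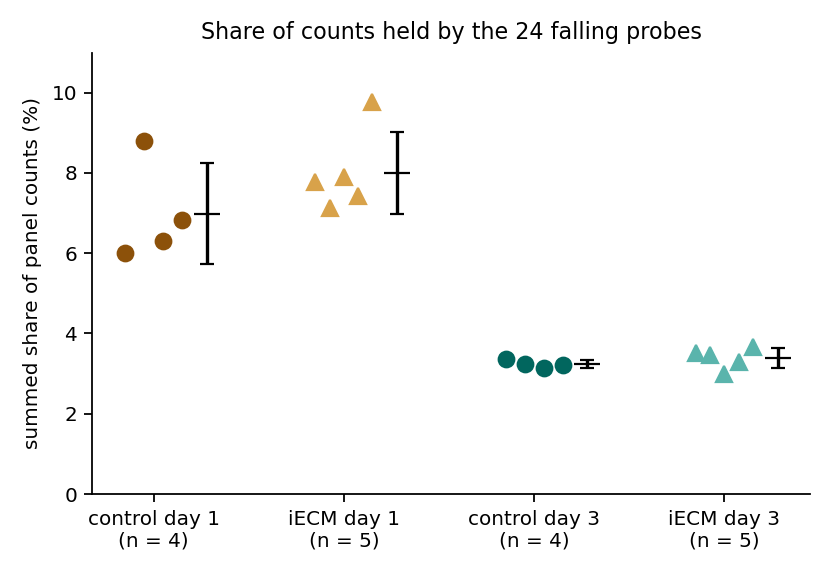
Summed share of panel counts (%, y axis from 0) held by the 24 members in each heart, by group on the x axis, where points are hearts and the bars to the right are the mean ± SD. Shares run from 6.00 to 9.77% at day 1 and from 2.99 to 3.66% at day 3, and the agents overlap on each day.

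Members 1, 2 and 3 accounted for 77.5% of the share lost between the days, and member 3 alone for 39.9%. The remaining 21 members together went from 1.84 ± 0.28% to 0.89 ± 0.07% of the counts (SD, n = 9 each). The members' summed raw count was 74775 ± 20392 (SD) over day 1 hearts and 45793 ± 8355 (SD) over day 3 hearts, while the panel total was higher at day 3. Each of the 24 members also had a lower mean raw count at day 3, with a median difference of -0.47 on the log2 scale, while the median over the 306 probes was 0.64 without scaling.

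The size of the members' differences thus depends on what the counts are set against. With hearts scaled on the rows read as positive controls, the median of the 306 probes stood 1.09 higher at day 3 on the log2 scale. On that scale the members' median difference was -0.02, 13 of 24 were below 0, and 3 still met the rule. On the raw counts 9 of 24 met it. The RNA amount recorded for the series is a range of 50 to 100 ng, and no amount for each sample was used here. Which scale follows the amount of RNA per heart was not tested.

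The levels of the members spanned a wide range. Mean CPM was above 1000 for 7 members and below 500 for the other 17, with 5 of these below 100. The median raw count was 315 over the members and 544 over all 306 probes. Of the 24 members, 3 were among the 30 probes with the highest counts. The difference between the days was 1 or more on the log2 scale in 11 members, and its median was -0.96 over the members against 0.15 over the 306 probes.

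**Figure D2:**
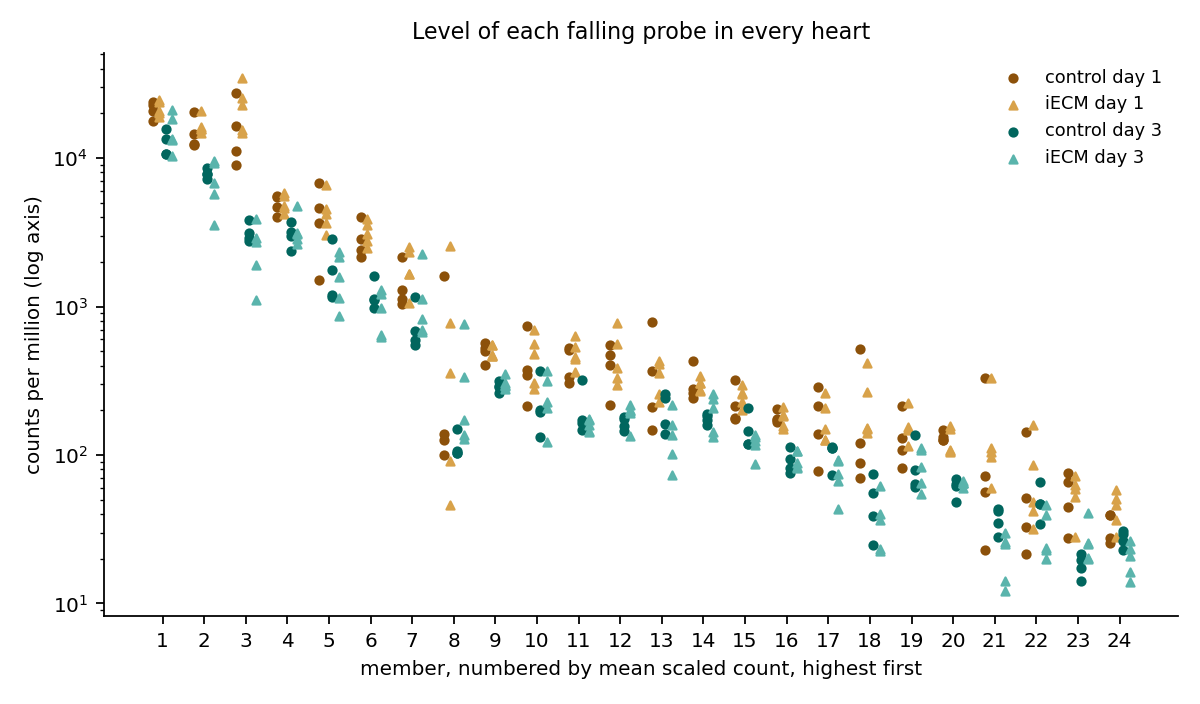
Level of each of the 24 members in every heart, in CPM on a log y axis, with members on the x axis in order of mean scaled count, circles for control and triangles for iECM hearts, and colours for the day. Members 2, 3, 6, 9, 16 and 20 show no overlap between the days, whereas the day 1 and day 3 points of the other members overlap.

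Member 3, in row 310 of the table, showed the largest difference, -2.78 on the log2 scale or 6.85-fold. It stood at 9000, 27427, 11152 and 16539 CPM in day 1 control hearts and at 22676, 15357, 25394, 14692 and 34566 CPM in day 1 iECM hearts. At day 3 it stood at 2910.5, 3850.3, 3117 and 2755 CPM in control hearts and at 1099.5, 2876, 2711, 3914 and 1904 CPM in iECM hearts. Every day 3 heart lay below every day 1 heart, and this was the single member for which the raw counts did not overlap either. On the scale of the positive-control rows its difference was -1.83.

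Member 18, in row 273, came next at -2.13. Its day 1 levels were 69.7, 519.9, 88.0 and 120.2 CPM in control hearts and 267, 151, 149, 139.8 and 413 CPM in iECM hearts. Its day 3 levels were 24.8, 74.0, 38.5 and 55.7 CPM in control hearts and 22.5, 40.2, 23.4, 61.5 and 36.3 CPM in iECM hearts. The days overlapped by a narrow margin, since the highest day 3 heart, at 74.0 CPM, lay above the lowest day 1 heart, at 69.7 CPM. Without control day 1 replicate 2 and iECM day 1 replicate 5, the difference was -1.73. In 1 of the 9 day 3 hearts the raw count was at or below the background limit.

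Member 21 had the third difference in size, at -1.83. It stood at 22.8, 329.7, 56.7 and 72.3 CPM in day 1 control hearts and at 111, 97.1, 104, 59.7 and 330.0 CPM in day 1 iECM hearts. At day 3 it stood at 27.9, 41.9, 34.6 and 43.3 CPM in control hearts and at 12.2, 26.1, 14.2, 29.9 and 25.0 CPM in iECM hearts. Control day 1 replicate 1 lay inside the day 3 range, and the same 2 day 1 hearts were again the highest. Without them the difference was -1.32. The raw count of member 21 was at or below the background limit in 1 day 1 heart and 2 day 3 hearts.

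Members 6, 11 and 5 followed, with differences of -1.53, -1.36 and -1.35. Member 6 went from 3022 ± 671 to 1063 ± 309 CPM, and its days did not overlap. Member 11 went from 456 ± 106 to 178 ± 55.8 CPM, and member 5 from 4283 ± 1651 to 1667 ± 656 CPM (SD, n = 9 for each mean).

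Of the 5 members with the highest counts, members 3 and 5 are among the largest differences given above, and members 1, 2 and 4 remain. Member 1 held 21510 ± 2341 CPM at day 1 and 14109 ± 3698 CPM at day 3, a 1.56-fold difference. Member 2 held 15880 ± 3012 and 7363 ± 1854 CPM, 2.20-fold, and member 4 held 4963 ± 652 and 3179 ± 689 CPM, 1.58-fold (SD, n = 9 each). Member 1 was at 22912, 17776, 23883 and 20862 CPM in day 1 control hearts and at 20646, 23709, 20271, 24470.5 and 19059 CPM in day 1 iECM hearts. At day 3 it was at 15804, 10664, 10675 and 13370.5 CPM in control hearts and at 21162, 13364, 13256, 10395 and 18289 CPM in iECM hearts. The iECM replicates 1 and 5 of day 3 reached the day 1 range, so the days overlapped.

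The days did not overlap in 6 members (2, 3, 6, 9, 16 and 20) on the CPM scale and in 1 on raw counts. Over the 306 probes, 3.59% on the CPM scale and 0.327% on raw counts were lower in all day 3 than in all day 1 hearts. Probes higher in all day 3 hearts were not counted. Since the rule used this contrast, these shares are given only for reference. The members nearest the threshold were member 1 at -0.64 and member 22 at -0.60, and the probes just outside it stood at -0.54 and -0.54.

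The 18 leave-one-out selections gave 22 to 26 probes and kept 22 to 24 of the 24 members. Only members 8 and 22 were ever lost, each in 6 of the 18. In member 22 the difference was -0.60 with all hearts and -0.19 without control day 1 replicate 2 and iECM day 1 replicate 5. In member 8 it was -0.66 and -0.36.

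The median spread between hearts was larger over the members than over the panel. Their SD within groups had a median of 0.45 on the log2 scale (range 0.15 to 1.63), against 0.27 over the 306 probes. This SD was more than 2 times the SD that counting alone would give in 20 of the 24 members. The ratio had a median of 4.50 over the members and 4.17 over the 306 probes, whose lower quartile was 2.21, so the members were near the panel in this ratio. Counting error covers only the sampling of barcodes. The median spread was 0.47 in day 1 hearts and 0.41 in day 3 hearts, and 14 members varied more at day 1. A large spread was not particular to the members, since the SD within groups reached 1.62 among the 282 other probes. A rule on mean differences can also favour probes that vary more.

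**Figure D3:**
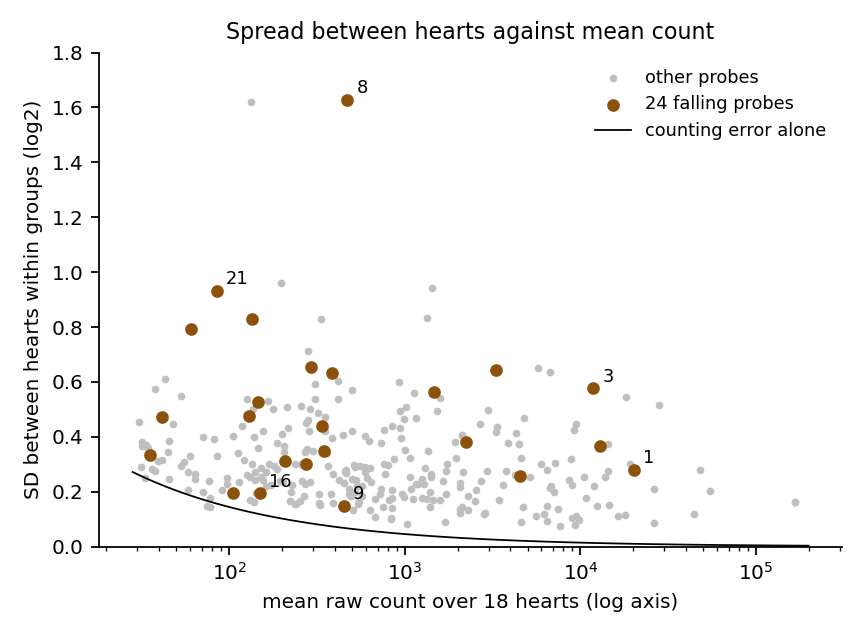
SD between hearts within groups (log2, y axis) against mean raw count over 18 hearts (log x axis) for the 24 members and the other 282 probes, with a line for counting error alone. The members have a median SD of 0.45, member 8 reaches 1.63, and member 9 lies lowest among them at 0.15.

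Member 8 varied most. At day 1 it stood at 1617, 126, 139 and 99.2 CPM in control hearts and at 774, 355, 91.5, 45.8 and 2573 CPM in iECM hearts. At day 3 it stood at 107, 150.0, 103 and 103 CPM in control hearts and at 765, 129, 171, 136 and 336 CPM in iECM hearts. A few hearts of both days were high and the rest were low, so its difference between the days rests on 3 day 1 hearts above 700 CPM. Member 21 was second, with an SD of 0.93.

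The steadiest members were member 9, with an SD of 0.15, and member 20, with 0.19. Member 9 held 503, 529, 406 and 571 CPM in day 1 control hearts and 466, 461, 549, 469 and 555 CPM in day 1 iECM hearts. Its day 3 levels were 313, 287, 260.0 and 293 CPM in control hearts and 350.3, 307, 289, 298 and 277 CPM in iECM hearts. Its fold between the days was only 1.68, yet the days were fully apart.

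Low counts limited some members. In 19 members every heart was above the background limit. The other 5 (18, 21, 22, 23 and 24) had at least 1 heart at or below it. Members 23 and 24 were each at or below it in 4 of 9 day 3 hearts, and in 1 and 3 of the 9 day 1 hearts. Member 21 was at or below it in 1 day 1 heart and 2 day 3 hearts, and member 22 in 3 and 0. With the mean of the negative-control rows subtracted, the difference went from -1.20 to -1.56 in member 23 and from -1.83 to -2.19 in member 21, and from -0.60 to -0.32 in member 22.

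The members were then compared between the agents. Each of the 24 was lower at day 3 in control hearts and in iECM hearts, where 120 and 137 of the 306 probes were lower. The rule averaged these same hearts and so favours a fall in both agents, and the members' counts here only describe them. Taken alone, 21 members passed the rule's threshold in control hearts, 22 in iECM hearts and 19 in both. The median difference was -0.90 in control and -1.07 in iECM hearts. The change was lower with iECM than with control in 14 of 24 members and in 185 of the 306 probes, so the members were near the panel in this count. In size the medians differed: the iECM change minus the control change had a median of -0.31 over the members and -0.09 over the 306 probes. The members also varied more within groups, with a median SD of 0.45 against 0.27 on the log2 scale, and they share the same hearts. This difference in medians was not tested. The changes in both agents lay within 0.3 of each other in 10 of the 24 members. Member 21 had the widest gap, at -1.02 in control and -2.47 in iECM hearts, followed by member 22 at -0.02 and -1.08 and member 3 at -2.22 and -3.22. Member 8 showed the widest gap the other way, at -1.01 in control and -0.39 in iECM hearts.

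**Figure D4:**
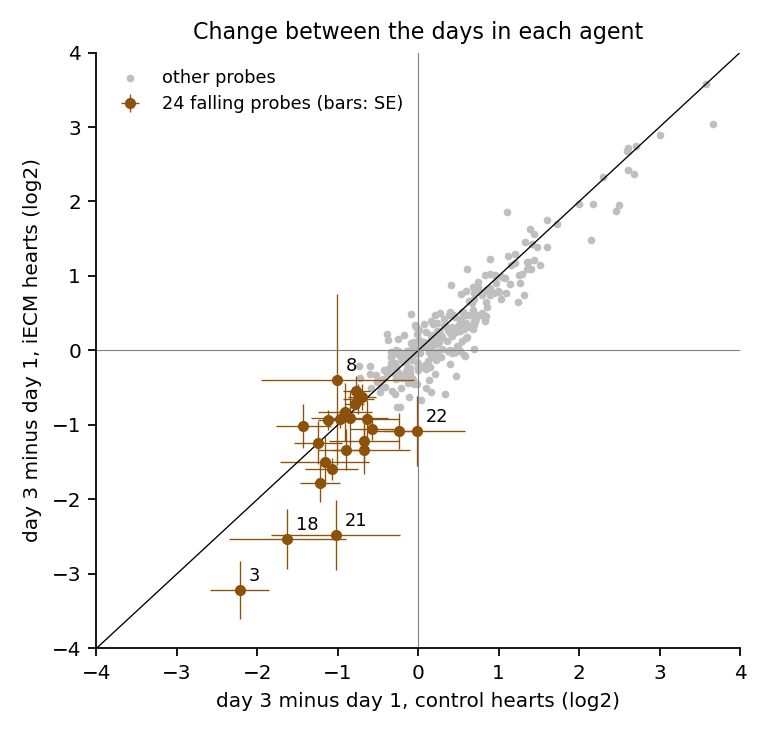
Day 3 minus day 1 (log2) in control hearts on the x axis and in iECM hearts on the y axis for the 24 members, with bars for the SE of each difference, and for the other 282 probes in grey; the diagonal marks equal changes. All members lie below 0 in both agents, which the rule itself favours, with member 3 at -2.22 and -3.22 and member 22 at -0.02 and -1.08.

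For the agreement of the agents, probes were chosen in control hearts and tested in iECM hearts, and the reverse. The choice and the test were not fully separate. The count minimum of 30 was taken over all 18 hearts, and the choices were made with the probes called falling in both agents already known. The rule applied to control hearts alone took 26 probes, of which 21 are members. In iECM hearts 20 of these 26, or 76.9%, fell by edgeR's quasi-likelihood test with an adjusted p under 0.05, and 0 rose. Over all 371 probes tested, 22.1% fell in iECM hearts. The 371 include probes under the count minimum, which could not be chosen. The median change of the 26 in iECM hearts was -1.05 on the log2 scale, against -0.09 over all 371.

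The rule applied to iECM hearts alone took 28 probes, of which 22 are members. In control hearts 21 of the 28, or 75%, fell by the same edgeR test and 0 rose, where 20.5% of all probes fell. Their median change was -0.98, against -0.07 over all. These counts hold relative to the panel: scaled on the rows read as positive controls, 3 of the 26 and 2 of the 28 fell, and over all 371 probes 3 and 2 fell. Without control day 1 replicate 2 the control hearts chose 22 probes, of which 13 fell in iECM hearts.

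Whether the agents differed within a day was not used by the rule and was tested across the panel. At day 1, edgeR's quasi-likelihood test called 0 of the 24 members, and 0% of all 371 probes. At an unadjusted p under 0.05 there were 0 members and 0.809% of all probes, and DESeq2 and limma also called 0 members. The edgeR log2 fold changes of iECM over control had a median of 0.14 over the members and -0.01 over all probes, with 15 of 24 and 179 of 371 above 0. Member 24 had the smallest p, with a log2 fold change of 0.37 (SE 0.19, edgeR adjusted p = 0.998). Member 3 stood at 0.49 (SE 0.31) and member 11 at 0.19 (SE 0.19), with the same edgeR adjusted p.

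On the scale of the rule, 21 of 24 members and 196 of the 306 probes were higher in iECM than in control hearts at day 1. The members share the same hearts, so these counts are not independent. The median difference between iECM and control hearts at day 1 was 0.19 over the members and 0.04 over the 306 probes. It ranged from 0.07 to 0.36 when each heart was left out in turn. The members' median per heart had an SD of 0.45 between hearts within groups at day 1. The difference was smaller than this SD, which is that of single hearts and not the error of a difference between group means. The 95% interval of the fold change lay inside a 2-fold change in 18 of 24 members, and in 91.9% of all probes. For members 3, 7, 8, 18, 21 and 22 it did not exclude a 2-fold difference between the agents at day 1.

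At day 3 the same edgeR test again called 0 of 24 members and 0% of all probes, as did DESeq2 and limma for the members. At an unadjusted p under 0.05 there was 1 member, against 2.96% of all probes. It was member 24, at -0.43 (SE 0.20, edgeR adjusted p = 0.901), lower with iECM. Its day 3 levels were 22.9, 26.3, 29.4 and 31.0 CPM in control hearts and 14.0, 20.8, 26.2, 23.3 and 16.3 CPM in iECM hearts, which overlap and lie near background. Member 23 stood at 0.54 (SE 0.30) and member 17 at -0.45 (SE 0.27), with the same edgeR adjusted p. The members' median was -0.05 and that of all probes -0.04, and 16 of 24 members had an interval inside a 2-fold change, against 91.4% of all probes. For members 7, 8, 13, 17, 18, 21, 22 and 23 a 2-fold difference between the agents at day 3 was not excluded.

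The difference between the agents in their change over time was tested as an interaction. edgeR called 0 of 24 members and 0% of all probes, and 1 member had an unadjusted p under 0.05, against 2.7% of all probes. DESeq2 and limma called 0 members. Member 24 stood at -0.81 (SE 0.27, edgeR adjusted p = 0.928), member 3 at -0.84 (SE 0.43) and member 11 at -0.52 (SE 0.27), with the same edgeR adjusted p. The precision was low: the 95% interval lay inside a 2-fold difference in 7 of 24 members, against 73.0% of all probes. For the other 17 members a 2-fold difference between the agents was not excluded.

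Finally, the members were compared with each other across hearts after removing each group's mean. Over 276 pairs the median Pearson correlation was 0.18 and the median Spearman correlation 0.15, against 0.27 and 0.26 over the pairs of all 306 probes. These are descriptions without a test, over 18 hearts with 4 group means removed, and all pairs share the hearts and the panel total. Of the member pairs, 29.0% had a Pearson correlation above 0.5 and 12.3% below -0.5, shares near the 35.5% and 14.2% of all pairs. These values belong to the CPM scale. The members' median Pearson correlation was 0.59 with hearts scaled on the rows read as positive controls and 0.44 without scaling. The medians over all 306 probes were not computed there, so the members cannot be set against the panel on those scales. The pairs and sets described next were computed on the CPM scale alone.

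The closest pair was members 18 and 21, with Pearson's r at 0.92 and Spearman's rho at 0.91. It was 0.82 without the 2 hearts farthest from the median of member 18, 0.95 in day 1 hearts and 0.88 in day 3 hearts. Members 5 and 10 followed at 0.90 and members 3 and 6 at 0.90. The most opposed pair was members 1 and 3, with Pearson's r at -0.85 and Spearman's rho at -0.86, and r was -0.96 in day 1 hearts and -0.90 in day 3 hearts. Members 1 and 6 stood at -0.85 and members 1 and 2 at -0.77. On the CPM scale, hearts with more of member 1 thus tended to have less of members 2, 3 and 6 than other hearts of their group.

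Average linkage on these correlations, cut into 2 sets, put members 1, 4, 7, 8, 9, 14, 16 and 20 apart from the other 16. The sets were made from these values, so the correlations over all hearts only describe them. Within the set of 16 the median Pearson correlation was 0.61, within the set of 8 it was 0.18, and between them -0.29. When the sets were made from day 1 hearts alone, members 1, 4, 7, 14, 16 and 20 stood apart from the other 18. In day 3 hearts, which had not made these sets, the median was 0.42 within the 18, 0.12 within the 6 and -0.15 between them, with 66 of 108 pairs between the sets not above 0.

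**Figure D5:**
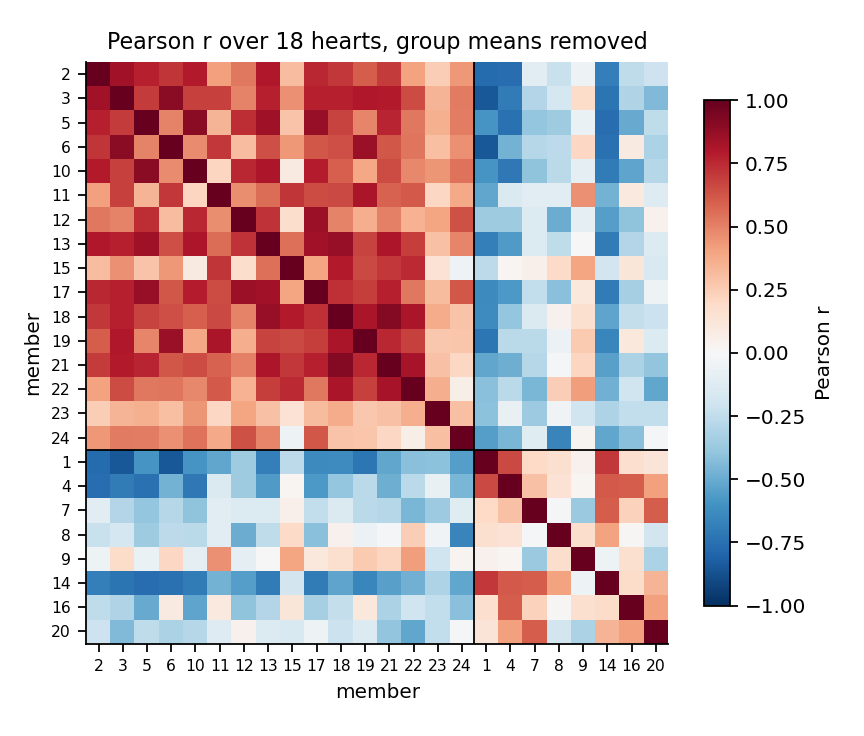
Pearson correlation (colour, from -1 to 1) of every pair of members over 18 hearts after group means were removed, with the set of 16 first and the set of 8 after the black lines. Most pairs among the first 16 are above 0, with a median of 0.61, and most pairs between the sets are below 0, with a median of -0.29.

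The members were also set against the rest of the panel, on the CPM scale. The first axis of variation within groups among the 282 other probes held 56.1% of their variance. Of the members, 13 had a Pearson correlation above 0.5 with it and 3 below -0.5, which were members 1, 4 and 14 at -0.84, -0.78 and -0.79. Members 17, 3 and 2 were highest, at 0.90, 0.89 and 0.87. Of the other probes, 62.8% were above 0.5 and 13.8% below -0.5, so members stood on both sides of this axis in shares near those of the panel. The sign of the axis was set so that member 3 is positive.

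Neither measure of depth passed a test against that axis. Its correlation with the log2 panel total, group means removed, was 0.25 for Pearson (permutation p = 0.341, adjusted 0.682 over 2 relations) and 0.18 for Spearman (permutation p = 0.496, adjusted 0.702), at n = 18. Without the 2 hearts farthest from the median total, Pearson's r was 0.29. With the sum of the positive-control rows it was -0.05 for Pearson (permutation p = 0.867, adjusted 0.867) and 0.11 for Spearman (permutation p = 0.702, adjusted 0.702), and Pearson's r was -0.15 without the 2 farthest hearts. Within day 1 hearts Pearson's r with the panel total was 0.26 and within day 3 hearts 0.25, and with the positive-control rows 0.33 and -0.18. What the axis stands for was not tested.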

How the data were processed

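RNA from 18 samples of infarcted left ventricle was counted by NanoString hybridization. The authors deposited whole-number counts for 394 numbered rows and 18 samples, read as raw counts because totals differ between samples. The instrument and counting software are not given in the sources used here. Of the rows, 375 to 380 were read as positive and 381 to 388 as negative controls from their values. No 2 hearts were alike within sampling noise (lowest chi-square per degree of freedom 7.27 over 153 pairs). The authors' deposited gene and pathway tables were not used, since they name genes without row numbers and hold no comparison of the days.

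The members follow the rule stated at the opening. The members and all choices were made with earlier results of these data known, including the probes called falling in both agents. Tests used edgeR 4.0.16 on 380 rows (the 374 panel rows and 6 last rows): filterByExpr (minimum count 10) left 371, followed by TMM scaling, and the quasi-likelihood test on 4 group means, with Benjamini-Hochberg adjustment and a threshold of 0.05. The test was checked on simulated data. DESeq2 1.42.0 and limma 3.58.1 were alternatives. Correlations across hearts used log2 values minus group means, and permutation p-values came from 100000 permutations within groups, two-sided. Members described in full were, by rule, the 5 with the highest counts, the 6 with the largest falls, those at the threshold, the steadiest and most variable, and the 3 with the smallest p in each contrast. Replicate numbers were given in accession order, so no samples are paired.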

Additional observations from a re-analysis of the deposited data

Results flagged for a closer look

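In 100 sets of 4 or 5 hearts (24 members and their summed share, in 4 groups each), 7 had a heart far from the others of its group by Dixon's test. Chance alone gives about 1 in 20. The summed share of the members was 9.77% in iECM day 1 replicate 5, where the other 4 hearts held 7.13 to 7.90%. In the same heart member 2 stood at 20908 CPM, against 14849 to 16179 CPM in the others.

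Member 8 stood at 1617 CPM in control day 1 replicate 1, against 99.2 to 139 CPM in the other 3 hearts, and at 150.0 CPM in control day 3 replicate 2, against 103 to 107 CPM. In iECM day 3 replicate 1, member 4 was high, at 4731 CPM against 2657 to 3112 CPM, and member 12 was low, at 134 CPM against 191 to 219 CPM. Member 17 was low in control day 3 replicate 1, at 73.0 CPM against 111 to 112 CPM. No member differed between the agents in its change over time by the interaction test at an adjusted p under 0.05.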

How the results depend on the processing

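No paired analysis was possible because replicate numbers were given only in sample order. The number of members, 24, was 3 with hearts scaled on the positive-control rows, 9 without scaling, 39 with hearts shifted to 1 median, 61 with scaling on the last 6 rows and 11 at a threshold of -1. TMM scaling gave 31, and all 24 members were among them, as they were among the 39 and the 61. The members' median difference between the days, -0.96, was -0.017 with positive-control scaling, -0.47 without scaling and -1.30 with the last 6 rows. The last 6 rows are not known to be stable. Of the 26 probes chosen in control hearts, 20 fell in iECM hearts, against 3 with positive-control scaling. When each heart was left out in turn, 20 to 26 probes were chosen and 13 to 21 fell; the 13, of 22 chosen, came without control day 1 replicate 2. Of the 28 chosen in iECM hearts, 21 fell in control hearts, against 2 with positive-control scaling. The median pairwise correlation, 0.18, was 0.11 with TMM, 0.066 at 1 median, 0.094 with the last 6 rows, 0.59 with positive-control scaling, 0.44 without scaling, 0.10 for members with a mean count of 100 or more, and 0.10 without control day 1 replicate 2 and iECM day 1 replicate 5. The median iECM minus control difference at day 3, -0.04, ranged from -0.19 to 0.0024 when each heart was left out and was above 0 at 0.05, 0.08 and 0.03 with positive-control scaling, the last 6 rows and 1 median. The counts of 0 called members on each day and for the interaction stayed 0 under all alternatives run. The causes of these shifts were not tested. The subtraction of negative-control counts and the joint removal of both hearts were chosen after seeing the data. Counts near background limit members 18 and 21 to 24, and 4 or 5 hearts per group limit the comparisons of the agents.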
